A study of Homo sapiens with 9 samples.

Results

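The genes described here are 33 genes of the ATF4 stress response and of amino acid supply, listed by name: transcription factors and stress effectors, enzymes of serine, one-carbon, proline and other amino acid synthesis, amino acid transporters, and 3 secreted or membrane proteins. The list was drawn up by symbol, but with earlier results of these data known. Among the probe sets assigned to 1 gene alone, the brightest on average over the 9 arrays stood for each gene, and this measured 32 of the 33 members out of 19775 genes in all. GPT2, the mitochondrial alanine aminotransferase gene, was not analysed here.

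Expression was measured on oligonucleotide arrays in U2OS, an established human osteosarcoma cell line, in 3 groups of 3 arrays. Cells carried a plasmid for the BAP1 hairpin shBAP1 #1, a plasmid for a second BAP1 hairpin, shBAP1 #2, or a non-targeting plasmid, shControl. All groups went through lipid transfection, puromycin selection and arrest at the G1/S border with thymidine, so the controls carry these treatments too. BAP1 is a nuclear deubiquitinase, and the study asked which transcripts depend on it. The labels name no clones, and nothing in them says that the 3 arrays of a group came from different cultures. The p-values therefore reflect array-to-array spread, which may be technical.

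ATF4 is the transcription factor of the integrated stress response. When amino acids run short, proteins misfold in the endoplasmic reticulum or heme is lacking, kinases phosphorylate the initiation factor eIF2, general translation falls, and translation of the ATF4 transcript rises. ATF4 protein then pairs with C/EBP factors and activates genes that make and import amino acids, limit translation or, under long stress, promote cell death. Because ATF4 is controlled at translation, its transcript level does not report its protein level.

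Values are log2 expression values on the scale of robust multi-array averaging (RMA), where a difference of 1 means a doubling, and levels of different probe sets are not compared. Arrays of 1 group correlated at 0.995 to 0.997 over all probe sets. shBAP1 #1 arrays correlated with controls at 0.985 to 0.990 and shBAP1 #2 arrays with controls at 0.981 to 0.989. Between the hairpins, shBAP1 #1 and shBAP1 #2 arrays correlated at 0.977 to 0.987. Among shBAP1 #2 arrays, replicate 1 was closest to shControl, with a mean r of 0.989 against 0.981 for replicates 2 and 3. Actin signal at the 3' end exceeded that at the 5' end, a measure of RNA quality, by 0.39 to 0.46 in the 6 shBAP1 arrays and by 0.47 to 0.51 in controls, and its part in any change given here was not tested. Of 6 markers of mesenchymal and bone-forming cells, VIM, SPARC, COL1A1 and RUNX2 averaged above 5.44, the median over all probe sets, in every group, whereas COL1A2 lay below it in every group. ALPL averaged 4.63 with shBAP1 #1, 5.57 with shBAP1 #2 and 4.39 in controls. Markers of leukocytes, epithelium and liver lay below it, while the endothelial marker PECAM1 averaged 6.95 with shBAP1 #1, 7.05 with shBAP1 #2 and 7.78 in controls. No probe set carried BAP1 as its single symbol in the annotation used, and the knockdown was not analysed here.

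ATF4 binds joint C/EBP-ATF elements, of which TGATGNAA is a core spelling. The RefSeq windows that run from 250 bases before to 50 bases after an annotated start (GRCh38.p14) were searched for it on both strands. 26 of the 33 members matched this table, and 7 of these 26 held the element, as did 3.62% of all 35116 windows and 4.46% of all 27305 genes. The 7 are shown because they include both called and uncalled members. Capitals mark the element, and TTGCATCA is the element read on the opposite strand:
ASNS: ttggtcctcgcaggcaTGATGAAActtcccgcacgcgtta
CEBPG: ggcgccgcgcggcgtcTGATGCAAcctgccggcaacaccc
CHAC1: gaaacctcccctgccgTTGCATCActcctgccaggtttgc
FGF21: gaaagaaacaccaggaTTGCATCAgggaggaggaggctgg
SLC1A4: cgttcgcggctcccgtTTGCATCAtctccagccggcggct
SLC1A5: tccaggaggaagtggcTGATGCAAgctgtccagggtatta
SLC7A1: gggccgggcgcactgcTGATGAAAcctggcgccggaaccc
These stretches lie at chr7:97872453-97872492 (ASNS, minus strand), chr19:33374055-33374094 (CEBPG, plus), chr15:40953246-40953285 (CHAC1, plus), chr19:48755454-48755493 (FGF21, plus), chr2:64989376-64989415 (SLC1A4, plus), chr19:46784888-46784927 (SLC1A5, minus) and chr13:29595658-29595697 (SLC7A1, minus). The element begins 68 bases before the annotated start of ASNS and 42 bases before that of CEBPG, and inside the transcribed part of the window for SLC7A1. CEBPG, CHAC1, FGF21, SLC1A4 and SLC1A5 carry the spelling TGATGCAA, which overlaps the first motif and occurs in 0.866% of all windows. A cyclic AMP element, TGACGTCA, was found in 1 member, PPP1R15A, and in 1.85% of all windows. A match is a run of letters, and no binding was measured.

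Neither hairpin moved the members as a block. With shBAP1 #1, 11 of 32 measured members passed the test, 3 higher and 8 lower. Over all genes, 25.6% were called with this hairpin, 13% higher and 12.6% lower. Led by the serine enzyme gene PSAT1, the lowered members included PHGDH, NUPR1, SHMT2 and ATF4 itself. With shBAP1 #2, 14 of 32 passed, 5 higher and 9 lower, where 33.4% of all genes were called, 16.9% higher and 16.5% lower. MTHFD2, DDIT4, CEBPG and PSAT1 fell most, and PPP1R15A and TRIB3 rose most. Calls were made in limma over all 9 arrays at 0.05, after Benjamini-Hochberg adjustment of p-values across 19775 genes.

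The median log2 change over the members was -0.20 with shBAP1 #1 and -0.22 with shBAP1 #2, against medians over all genes of 0.0074 and 0.016. Arrays did not overlap between shBAP1 #1 and controls for 11 members (38.8% of all genes) and between shBAP1 #2 and controls for 14 (42.9% of all genes). The hairpins were also set against each other directly. For shBAP1 #2 against shBAP1 #1, 12 members were called, 6 higher and 6 lower (34.7% of all genes called), and arrays of 13 did not overlap (43.9% of all genes). Both comparisons with controls use the same 3 control arrays.

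Counts of lowered members depended on single arrays, and calls over all genes moved as well. With 1 array left out, calls over all genes ranged from 3912 to 5571 for shBAP1 #1 (5058 with all arrays). For shBAP1 #2 they ranged from 5456 to 6885 (6600 with all arrays). The 8 lowered by shBAP1 #1 became 2 without its replicate 1, 3 without its replicate 2, 3 without shControl replicate 1 and 2 without shControl replicate 3. The 9 lowered by shBAP1 #2 became 5 without its replicate 2, its replicate 3 or shControl replicate 3, and 6 without shControl replicate 1. Without shBAP1 #2 replicate 1, the array nearest to the controls, 4 members were higher and 12 lower.

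**Figure D1:**
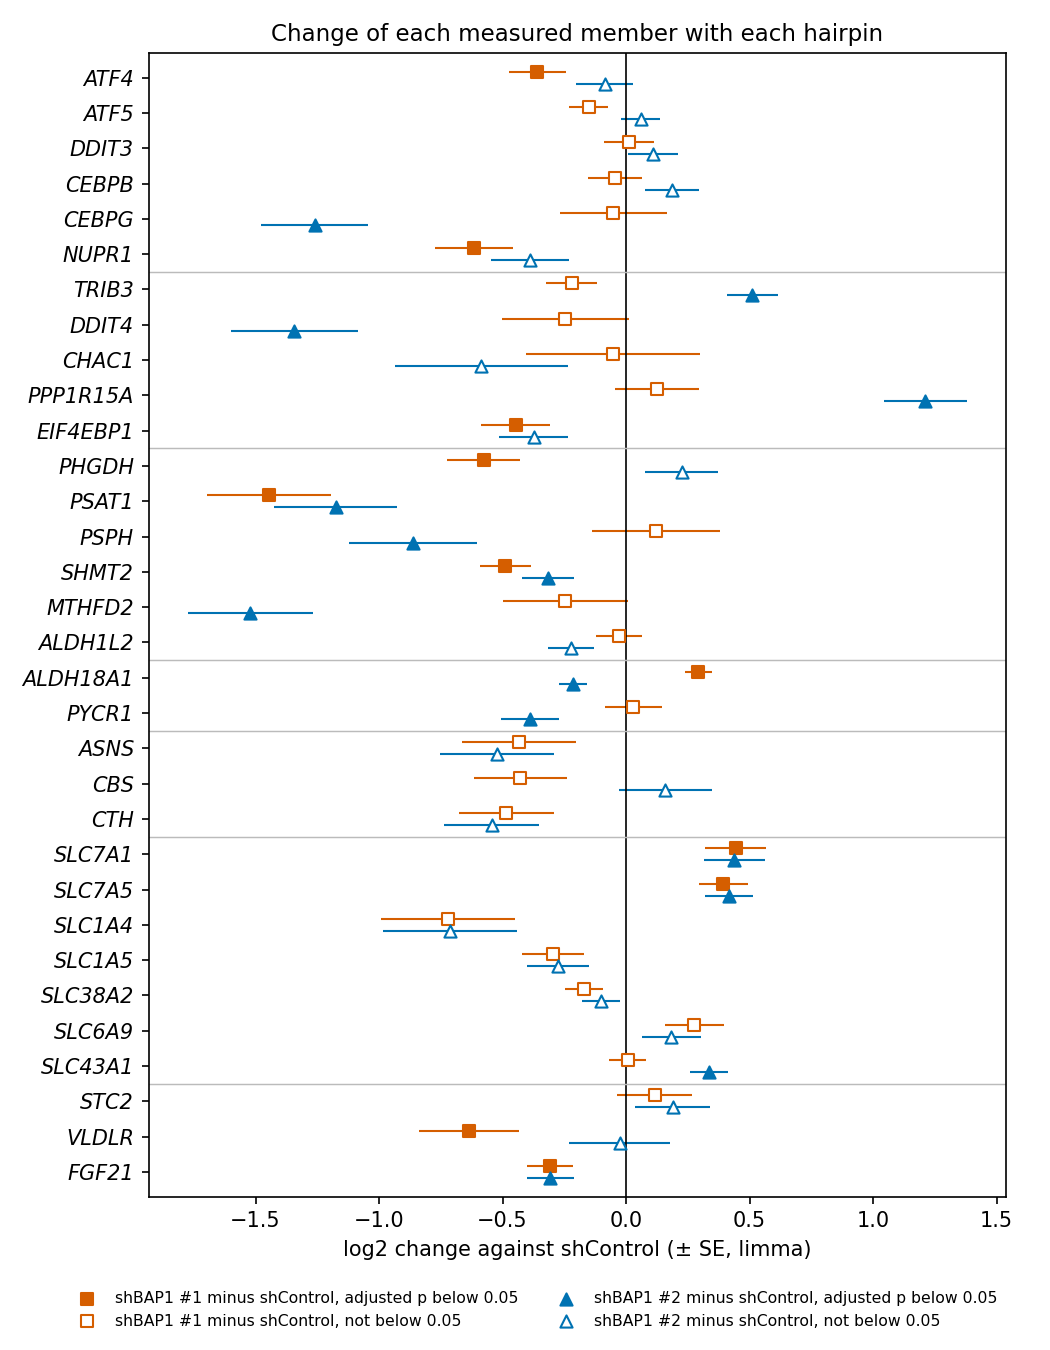
Log2 change of each measured member against shControl (x axis), for shBAP1 #1 (squares) and shBAP1 #2 (triangles), with bars of 1 SE (limma, n = 3 arrays a group) and filled symbols where the adjusted p was below 0.05. Grey lines separate the roles; MTHFD2 (-1.52) and PPP1R15A (1.21) with shBAP1 #2 are the ends of the range for that hairpin.

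Among the 6 transcription factors, only CEBPG changed by more than 1 log2 unit, and only with shBAP1 #2. CEBPG encodes C/EBP gamma, a partner with which ATF4 forms heterodimers. Its value was 9.44, 9.41 and 9.68 with shBAP1 #1, 8.86, 7.98 and 8.07 with shBAP1 #2, and 9.47, 9.34 and 9.88 in controls. All 3 shBAP1 #2 arrays lay below every other array. The change was -1.26 ± 0.22 (SE, n = 3; adjusted p = 0.00107), a 2.40-fold lower level, and the hairpins differed by -1.21 ± 0.22 (adjusted p = 0.00126). With shBAP1 #1 the change was -0.05 (95% confidence interval -0.53 to 0.43). A second probe set of CEBPG gave 0.45 with shBAP1 #1 and -0.42 with shBAP1 #2, neither called, and a difference of -0.87 between the hairpins (adjusted p = 0.0072 over all probe sets). The promoter window of CEBPG lies at chr19:33373863-33374162 on the plus strand and is shown because its gene is the one factor lowered this far, with the C/EBP-ATF element in capitals:
CEBPG window: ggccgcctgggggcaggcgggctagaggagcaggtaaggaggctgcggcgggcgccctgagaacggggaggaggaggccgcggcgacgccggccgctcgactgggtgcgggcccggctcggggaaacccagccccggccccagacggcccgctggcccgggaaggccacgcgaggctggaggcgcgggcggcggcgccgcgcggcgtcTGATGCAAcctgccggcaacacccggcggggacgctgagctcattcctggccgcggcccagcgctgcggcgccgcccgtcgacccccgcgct

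ATF4 itself read 12.28, 12.22 and 12.64 with shBAP1 #1, 12.72, 12.64 and 12.60 with shBAP1 #2, and 12.70, 12.59 and 12.92 in controls. Replicates 1 and 2 of shBAP1 #1 were the lowest of all arrays, and replicate 3 fell among the controls. ATF4 was lower with shBAP1 #1 by the test (-0.36 ± 0.12, adjusted p = 0.0451) and was not called with shBAP1 #2 (-0.09, 95% confidence interval -0.35 to 0.17). The shBAP1 #1 call was lost in 6 of the 9 leave-one-array-out fits (leaving out replicates 1 or 2 of shBAP1 #1, 2 or 3 of shBAP1 #2, and 1 or 3 of shControl), at changes of -0.38 to -0.27 and adjusted p = 0.0608 to 0.163. Cyclic loess (adjusted p = 0.0523) and a fit of the 6 arrays compared (adjusted p = 0.0777) lost it too. Without shBAP1 #1 replicate 3, the hairpins differed by 0.40 (adjusted p = 0.0117), a difference not called with all arrays (0.27, adjusted p = 0.102).

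NUPR1, a small stress-induced chromatin protein that ATF4 activates, read 9.20, 9.17 and 9.62 with shBAP1 #1, 9.44, 9.65 and 9.56 with shBAP1 #2, and 9.91, 9.65 and 10.27 in controls. Every shBAP1 #1 array lay below all controls, and the change was -0.62 ± 0.16 (adjusted p = 0.0149). It was lost without shBAP1 #1 replicate 1 or 2 or shControl replicate 3, at -0.55 to -0.45 and adjusted p = 0.0514 to 0.064. With shBAP1 #2 the change of -0.39 was not called (adjusted p = 0.0868), and it was called without shControl replicate 2 (-0.54, adjusted p = 0.0265).

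The remaining 3 factors were not called in any comparison. DDIT3, which encodes the pro-apoptotic factor CHOP, read 8.71, 8.84 and 8.68 with shBAP1 #1, 8.65, 8.92 and 8.95 with shBAP1 #2, and 8.60, 8.88 and 8.71 in controls. The 3 groups overlapped, and the changes were 0.01 (95% confidence interval -0.21 to 0.24) and 0.11 (-0.12 to 0.34). CEBPB, a C/EBP factor of stress and inflammation, differed from controls by -0.04 with shBAP1 #1 and 0.19 with shBAP1 #2. ATF5, a relative of ATF4 linked to mitochondrial stress, differed by -0.15 and 0.06. Its hairpin difference of 0.21 had an adjusted p = 0.0641, and passed without shBAP1 #2 replicate 1 (0.28, adjusted p = 0.015) and with dim genes left out (adjusted p = 0.0471). The other probe sets of ATF5 gave hairpin differences of -0.25, -0.22 and 0.13, none called over all probe sets. The sign therefore depended on the probe set.

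Of the 5 effectors, 2 were higher and 1 lower with shBAP1 #2 than with shBAP1 #1, and the other 2 were not called between the hairpins. Over all genes, 17.1% were called higher and 17.6% lower in that comparison. PPP1R15A encodes GADD34, the phosphatase subunit that removes phosphate from eIF2 and lets translation recover. It read 8.27, 8.40 and 8.03 with shBAP1 #1, 8.88, 9.55 and 9.53 with shBAP1 #2, and 8.13, 8.22 and 7.97 in controls. All 3 shBAP1 #2 arrays lay above the other 6, and replicate 1 was the lowest of them. The rise with shBAP1 #2 was 1.21 ± 0.17 (adjusted p = 0.000304), or 2.32-fold, and the hairpins differed by 1.09 ± 0.17 (adjusted p = 0.000514). A second probe set gave 1.44 with shBAP1 #2 and 0.16 with shBAP1 #1. The promoter window of this gene, the most raised member, lies at chr19:48872171-48872470 on the plus strand, with its cyclic AMP element in capitals 58 bases before the start:
PPP1R15A window: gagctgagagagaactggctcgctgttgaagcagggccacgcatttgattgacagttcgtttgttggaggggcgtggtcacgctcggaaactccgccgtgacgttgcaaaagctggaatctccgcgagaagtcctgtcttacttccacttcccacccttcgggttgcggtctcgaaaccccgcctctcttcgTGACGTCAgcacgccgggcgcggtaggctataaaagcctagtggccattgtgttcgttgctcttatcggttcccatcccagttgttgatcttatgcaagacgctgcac

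TRIB3, a pseudokinase that restrains ATF4 and AKT, also rose with shBAP1 #2. It read 8.64, 8.64 and 8.90 with shBAP1 #1, 9.39, 9.48 and 9.50 with shBAP1 #2, and 8.85, 8.84 and 9.15 in controls. The shBAP1 #2 arrays lay close together and above all others. The change was 0.51 ± 0.10 (adjusted p = 0.00274) with shBAP1 #2 and -0.22 ± 0.10 (adjusted p = 0.157) with shBAP1 #1, and the hairpins differed by 0.73 (adjusted p = 0.000255).

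DDIT4 went the other way with the same hairpin. It encodes REDD1, a stress-induced inhibitor of the growth kinase mTORC1. Its values were 9.04, 9.20 and 9.81 with shBAP1 #1, 8.87, 8.03 and 7.84 with shBAP1 #2, and 9.44, 9.62 and 9.72 in controls. The fall with shBAP1 #2 was -1.34 ± 0.26 (adjusted p = 0.00212), and the hairpins differed by -1.10 ± 0.26 (adjusted p = 0.00647). Every shBAP1 #2 array lay below every other array, replicate 1 by the least.

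EIF4EBP1 encodes 4E-BP1, which blocks cap-dependent translation until mTORC1 phosphorylates it. It read 10.48, 10.38 and 10.73 with shBAP1 #1, 10.88, 10.47 and 10.45 with shBAP1 #2, and 10.91, 10.82 and 11.20 in controls. All shBAP1 #1 arrays were below all controls (-0.45 ± 0.14, adjusted p = 0.0397), while replicate 1 of shBAP1 #2 fell among them (-0.37 ± 0.14, adjusted p = 0.0661). The first call was lost without shBAP1 #1 replicate 1 or 2 or shControl replicate 1 or 3 (-0.48 to -0.34, adjusted p = 0.0748 to 0.149). The second change was called without shBAP1 #2 replicate 1 (-0.51, adjusted p = 0.0112).

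CHAC1, an enzyme that degrades glutathione and a much used readout of ATF4 activity, was not called. Its values were 7.75, 7.12 and 8.29 with shBAP1 #1, 7.86, 6.86 and 6.84 with shBAP1 #2, and 7.77, 7.28 and 8.26 in controls. The arrays of each group spread over about 1 unit and the groups overlapped. The 95% confidence intervals, -0.83 to 0.72 with shBAP1 #1 and -1.36 to 0.19 with shBAP1 #2, leave room for sizeable changes.

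**Figure D2:**
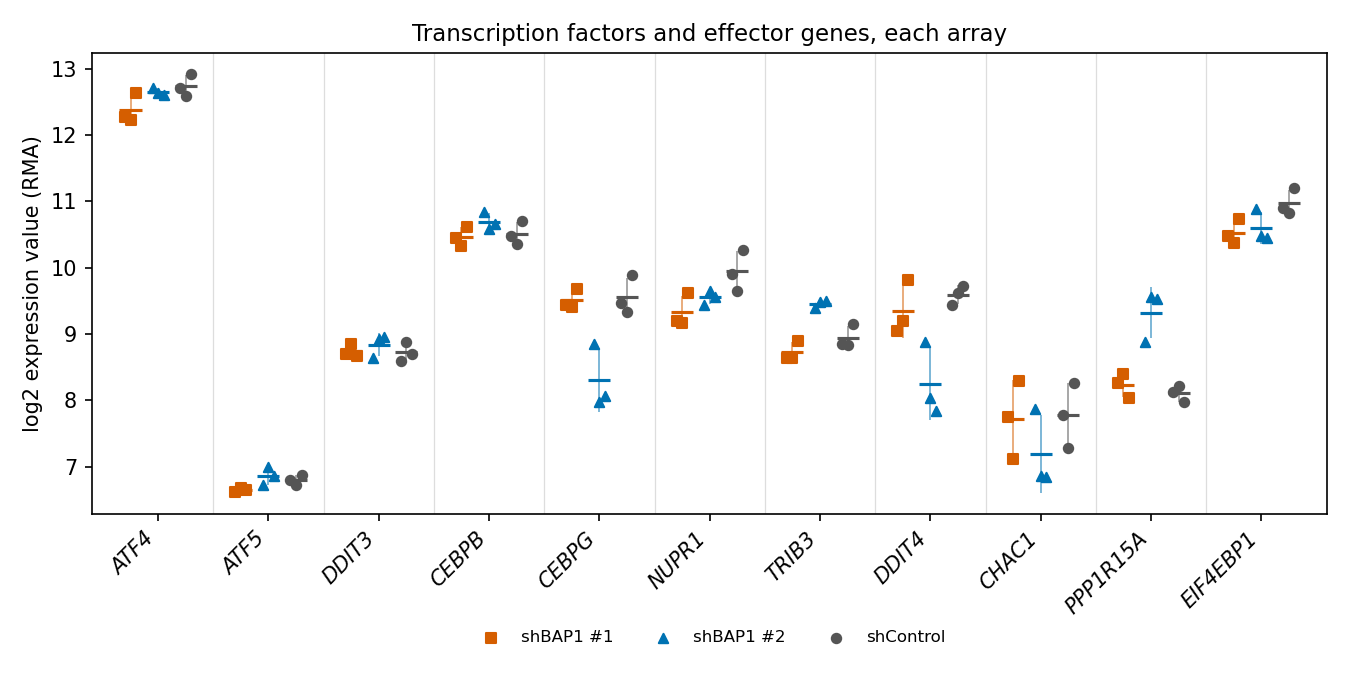
Log2 expression value (y axis) of 6 transcription factors and 5 effector genes in each array, with the mean (line) and SD (bar) of 3 arrays for shBAP1 #1 (squares), shBAP1 #2 (triangles) and shControl (circles). The shBAP1 #2 arrays of CEBPG (7.98 to 8.86) and PPP1R15A (8.88 to 9.55) stand clear of the other groups.

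Among the genes of serine synthesis, only PSAT1 was called lower with both hairpins. PHGDH was called lower with shBAP1 #1 alone and PSPH with shBAP1 #2 alone. Cells make serine from a glycolytic intermediate through PHGDH, then PSAT1, then PSPH, and SHMT2 and MTHFD2 pass its carbon into the mitochondrial folate pathway. Of the 6 genes of this group, 3 fell with shBAP1 #1 and 4 with shBAP1 #2, and 0 rose with either. Over all genes, 12.6% were called lower with shBAP1 #1 and 16.5% with shBAP1 #2. The group median was -0.37 with shBAP1 #1 and -0.59 with shBAP1 #2.

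PSAT1, the aminotransferase of the second step, read 9.06, 9.16 and 9.88 with shBAP1 #1, 10.16, 9.36 and 9.38 with shBAP1 #2, and 10.91, 10.54 and 10.98 in controls. All 6 shBAP1 arrays lay below all 3 controls. The change was -1.45 ± 0.25 with shBAP1 #1 (2.72-fold lower, adjusted p = 0.00161) and -1.18 ± 0.25 with shBAP1 #2 (2.26-fold lower, adjusted p = 0.00394). A second probe set gave -1.40 and -1.05. The difference between the hairpins was 0.27 (95% confidence interval -0.29 to 0.82).

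PHGDH, the dehydrogenase of the first step, fell with shBAP1 #1. Its values were 9.54, 9.35 and 9.93 with shBAP1 #1, 10.27, 10.53 and 10.42 with shBAP1 #2, and 10.21, 9.97 and 10.36 in controls. The shBAP1 #1 arrays were the 3 lowest of all. The change was -0.58 ± 0.15 (adjusted p = 0.015) with shBAP1 #1 and 0.22 ± 0.15 (adjusted p = 0.301) with shBAP1 #2, and the hairpins differed by 0.80 ± 0.15 (adjusted p = 0.00158). The shBAP1 #1 call was lost without its replicate 1 or 2 or shControl replicate 1 or 3 (-0.56 to -0.45, adjusted p = 0.0533 to 0.0641).

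PSPH, the phosphatase of the last step, fell with shBAP1 #2. It read 9.13, 8.92 and 9.37 with shBAP1 #1, 8.82, 7.77 and 7.87 with shBAP1 #2, and 9.05, 8.66 and 9.34 in controls. Replicates 2 and 3 of shBAP1 #2 were the lowest arrays, and replicate 1 lay within the controls. The change was -0.86 ± 0.26 (adjusted p = 0.0255), and the hairpins differed by -0.98 ± 0.26 (adjusted p = 0.0124). The first call was lost without shBAP1 #2 replicate 2 or 3 or shControl replicate 1 or 3 (-0.85 to -0.67, adjusted p = 0.0738 to 0.106), and the difference without shBAP1 #2 replicate 2 or 3 (-0.85 to -0.79, adjusted p = 0.0551 to 0.0563). The other probe sets of PSPH gave -0.76 and -1.11 with shBAP1 #2.

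MTHFD2, the mitochondrial folate dehydrogenase, showed the largest fall of any member. It read 12.63, 12.49 and 12.83 with shBAP1 #1, 12.13, 11.01 and 10.98 with shBAP1 #2, and 12.78, 12.84 and 13.06 in controls. The shBAP1 #2 arrays lay below all others, and replicate 1 was more than 1 unit above the other 2. The change was -1.52 ± 0.25 (2.87-fold lower, adjusted p = 0.000927) with shBAP1 #2 and -0.25 ± 0.25 (adjusted p = 0.581) with shBAP1 #1, and the hairpins differed by -1.28 ± 0.25 (adjusted p = 0.00251). A second probe set of MTHFD2 gave a smaller fall, -0.85 with shBAP1 #2, with -0.12 for shBAP1 #1 and -0.73 between the hairpins.

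SHMT2, which moves a carbon from serine to folate in mitochondria, read 10.61, 10.53 and 10.79 with shBAP1 #1, 11.03, 10.74 and 10.66 with shBAP1 #2, and 11.09, 11.08 and 11.21 in controls. All 6 shBAP1 arrays lay below the controls. It fell by 0.49 on the log2 scale with shBAP1 #1 (SE 0.10, adjusted p = 0.00541) and by 0.32 with shBAP1 #2 (SE 0.10, adjusted p = 0.038). The other probe sets gave -0.42 and -0.50 with shBAP1 #1, and -0.32 each with shBAP1 #2. The shBAP1 #2 call was lost in 6 of the 9 leave-one-array-out fits, those without shBAP1 #1 replicate 1, shBAP1 #2 replicate 2 or 3 or any 1 control (-0.34 to -0.24, adjusted p = 0.0543 to 0.144). ALDH1L2, a mitochondrial folate enzyme, averaged below the median of all probe sets, where background limits the signal, and changed by -0.03 and -0.22 (adjusted p = 0.891 and 0.0998). Without shBAP1 #2 replicate 1, ALDH1L2 was called with shBAP1 #2 (-0.30, adjusted p = 0.0307) and between hairpins (-0.27, adjusted p = 0.045).

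Both genes of proline synthesis were called lower with shBAP1 #2 (16.5% of all genes were), but neither call held in every setting. ALDH18A1, which makes the precursor of proline from glutamate, was called in opposite directions. Its arrays were tight: 11.03, 11.07 and 11.03 with shBAP1 #1, 10.53, 10.55 and 10.51 with shBAP1 #2, and 10.74, 10.77 and 10.74 in controls. The 3 groups did not overlap, at 0.29 ± 0.06 with shBAP1 #1 (adjusted p = 0.00296), -0.22 ± 0.06 with shBAP1 #2 (adjusted p = 0.0124) and -0.51 ± 0.06 between them (adjusted p = 5.79e-05). A second probe set rose with shBAP1 #1 (0.43) but gave -0.03 with shBAP1 #2, and the mean of both lost the shBAP1 #2 call (-0.12, adjusted p = 0.113). PYCR1, the mitochondrial reductase of the last step, read 10.20, 10.15 and 10.40 with shBAP1 #1, 10.06, 9.73 and 9.70 with shBAP1 #2, and 10.15, 10.12 and 10.39 in controls. It fell with shBAP1 #2 (-0.39 ± 0.12, adjusted p = 0.0243) and differed between hairpins (-0.42, adjusted p = 0.0162), with 0.03 for shBAP1 #1. The fall was lost without shBAP1 #2 replicate 2 or 3 or shControl replicate 3 (-0.34 to -0.30, adjusted p = 0.0913 to 0.0944), and the difference without shBAP1 #1 replicate 3 or shBAP1 #2 replicate 2 or 3 (-0.37 to -0.34, adjusted p = 0.0642 to 0.068).

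By their brightest probe sets, the other amino acid enzymes were not called against controls with either hairpin. Over all genes, 25.6% were called with shBAP1 #1 and 33.4% with shBAP1 #2. ASNS, which makes asparagine and is a classical ATF4 target, read 11.42, 11.18 and 11.91 with shBAP1 #1, 11.72, 11.27 and 11.25 with shBAP1 #2, and 11.88, 11.54 and 12.39 in controls. Its groups overlapped, with changes of -0.43 (95% confidence interval -0.95 to 0.08) and -0.52 (-1.04 to -0.01, adjusted p = 0.114). Without shControl replicate 2, the shBAP1 #2 change of ASNS was called (-0.72, adjusted p = 0.0438).

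CTH, the last enzyme of cysteine synthesis from methionine, read 7.85, 7.70 and 8.33 with shBAP1 #1, 8.14, 7.72 and 7.86 with shBAP1 #2, and 8.42, 8.13 and 8.79 in controls. Most shBAP1 arrays lay below the controls, and both groups overlapped them by 1 array. The changes were -0.48 ± 0.19 (adjusted p = 0.0977) with shBAP1 #1 and -0.54 ± 0.19 (adjusted p = 0.0517) with shBAP1 #2. With the replicate number as a block, the shBAP1 #1 change was called (adjusted p = 0.0275). It was also called without shBAP1 #1 replicate 3 or shControl replicate 2 (-0.67 to -0.64, adjusted p = 0.0241 to 0.0447). The shBAP1 #2 change was called when any of shBAP1 #1 replicates 2 and 3, shBAP1 #2 replicate 1 and shControl replicate 2 was left out (-0.70 to -0.54, adjusted p = 0.0239 to 0.048), and in 6 of the 7 settings that left out no single array, at adjusted p = 0.0127 to 0.0477.

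CBS, the enzyme before CTH in that pathway, differed between the hairpins by 0.59 ± 0.19 (adjusted p = 0.0323). Its values were 9.52, 9.12 and 9.08 with shBAP1 #2, 8.59, 8.39 and 8.98 with shBAP1 #1, and 9.06, 8.78 and 9.40 in controls. The shBAP1 #2 arrays lay above the shBAP1 #1 arrays, and the controls overlapped both. The difference was lost without replicate 1 or 2 of either hairpin (0.45 to 0.65, adjusted p = 0.052 to 0.123). Of the other probe sets of CBS, 1 gave a difference of 0.66 (adjusted p = 0.0192 over all probe sets) and 1 gave 0.13 (adjusted p = 0.494). Against controls the changes were -0.43 (adjusted p = 0.134) with shBAP1 #1, called without its replicate 3 (-0.59, adjusted p = 0.0447), and 0.16 with shBAP1 #2. CBS has a near-identical gene copy, CBSL, and the probe sets may not tell them apart.

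**Figure D3:**
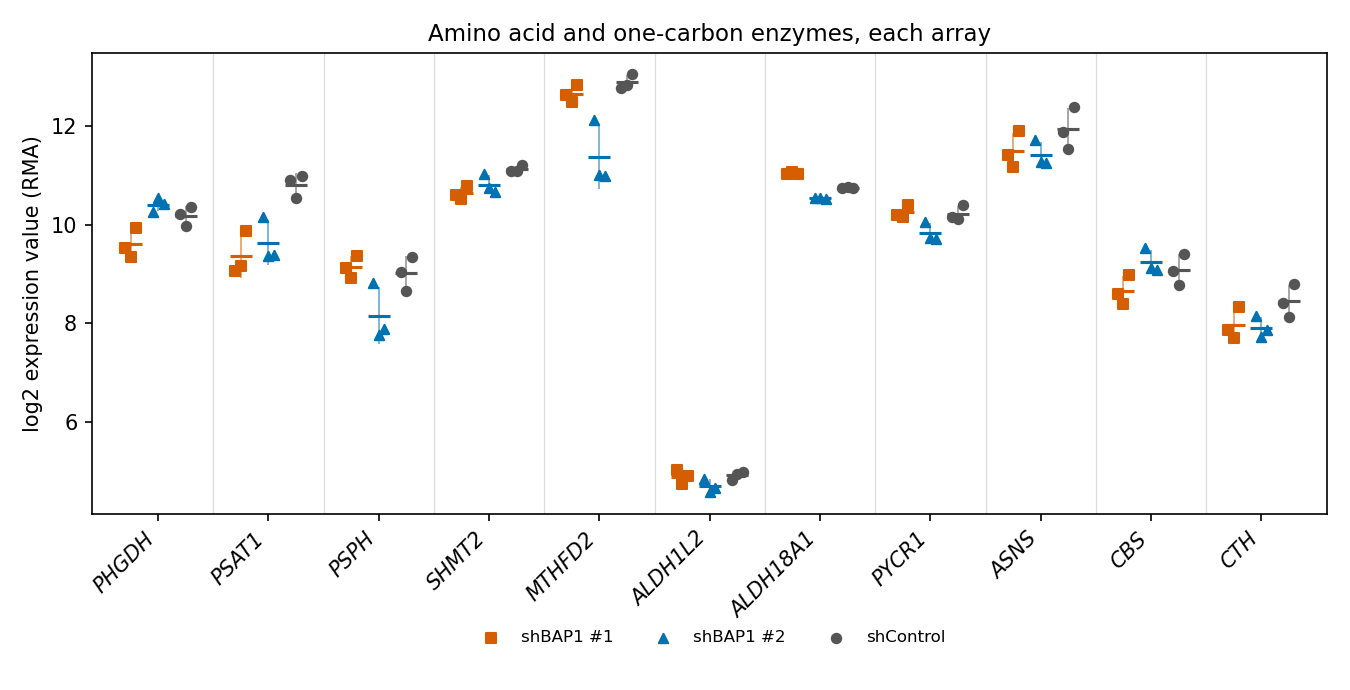
Log2 expression value (y axis) of 11 enzyme genes in each array, with the mean (line) and SD (bar) of 3 arrays for shBAP1 #1 (squares), shBAP1 #2 (triangles) and shControl (circles). All 6 shBAP1 arrays of PSAT1 (9.06 to 10.16) lie below the controls (10.54 to 10.98), and the 3 groups of ALDH18A1 do not overlap.

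Among the 7 amino acid transporters, 2 rose with shBAP1 #1 and 3 with shBAP1 #2, and 0 fell with either (13% and 16.9% of all genes were called higher). SLC7A5 encodes LAT1, the exchanger that imports leucine and other large neutral amino acids. It read 10.45, 10.44 and 10.60 with shBAP1 #1, 10.64, 10.49 and 10.43 with shBAP1 #2, and 10.16, 9.90 and 10.24 in controls. All 6 shBAP1 arrays lay above all controls, with changes of 0.39 ± 0.10 (adjusted p = 0.0129) and 0.42 ± 0.10 (adjusted p = 0.00719). Both calls held in all 16 other settings.

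SLC7A1, the importer of arginine and lysine, read 10.58, 10.49 and 10.83 with shBAP1 #1, 10.75, 10.58 and 10.56 with shBAP1 #2, and 10.24, 9.94 and 10.39 in controls. Again all shBAP1 arrays lay above the controls, at 0.44 ± 0.12 for each hairpin (adjusted p = 0.0221 and 0.0184). The 4 dimmer probe sets of SLC7A1 gave -0.14 to 0.12 with shBAP1 #1 and 0.14 to 0.43 with shBAP1 #2, and the mean of all 5 lost the shBAP1 #1 call (0.11, adjusted p = 0.511). That call was also lost without shBAP1 #1 replicate 3 or shControl replicate 1 or 2 (0.32 to 0.47, adjusted p = 0.0516 to 0.0801), and the shBAP1 #2 call without its replicate 1 or shControl replicate 2 (0.31 to 0.38, adjusted p = 0.0575 to 0.0663).

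SLC43A1 encodes LAT3, a carrier of branched-chain amino acids. Its values were 7.02, 7.03 and 7.24 with shBAP1 #1, 7.48, 7.36 and 7.44 with shBAP1 #2, and 7.11, 7.03 and 7.12 in controls. The shBAP1 #2 arrays lay above all others, at 0.34 ± 0.08 against controls (adjusted p = 0.00558) and 0.33 ± 0.08 against shBAP1 #1 (adjusted p = 0.00582).

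SLC1A4 and SLC1A5, sodium-coupled carriers of small neutral amino acids and of glutamine, were below controls on average without being called. SLC1A4 read 8.46, 7.96 and 8.97 with shBAP1 #1, 8.89, 8.29 and 8.24 with shBAP1 #2, and 9.23, 8.77 and 9.56 in controls. Its arrays spread widely in every group, and each shBAP1 group overlapped the controls by 1 array. The changes were -0.72 ± 0.27 (adjusted p = 0.0797) and -0.71 ± 0.27 (adjusted p = 0.0682), and the other probe sets gave -0.89 to -0.27 and -0.62 to -0.46. With the replicate number as a block, the shBAP1 #1 change of SLC1A4 was called (adjusted p = 0.0286). It was also called without shBAP1 #1 replicate 3 or shControl replicate 2 (-0.97 to -0.93, adjusted p = 0.0222 to 0.0427), and with shBAP1 #2 when any of shBAP1 #1 replicates 2 and 3, shBAP1 #2 replicate 1 and shControl replicate 2 was left out (-0.92 to -0.71, adjusted p = 0.0279 to 0.0416). The fit of the 6 arrays compared called the shBAP1 #2 change too (-0.71, adjusted p = 0.0462). SLC1A5 changed by -0.30 (adjusted p = 0.126) and -0.28 (adjusted p = 0.128), the second called without shControl replicate 2 (-0.38, adjusted p = 0.0497).

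SLC38A2, the starvation-induced carrier SNAT2, changed by -0.17 (95% confidence interval -0.34 to 0.00) and -0.10 (-0.27 to 0.07). The suffix of the SLC38A2 probe set marks possible cross-hybridisation with other transcripts. SLC6A9, the glycine carrier GLYT1, had control values of 5.23, 5.19 and 5.27, below the median of all probe sets. SLC6A9 changed by 0.28 (adjusted p = 0.133) with shBAP1 #1, called without its replicate 2 (0.43, adjusted p = 0.00828), and by 0.18 (adjusted p = 0.3) with shBAP1 #2.

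Of the 3 secreted and membrane genes, 2 fell with shBAP1 #1 and 1 with shBAP1 #2 (12.6% and 16.5% of all genes were called lower). FGF21, a secreted metabolic hormone of the stress response, read 6.06, 6.11 and 5.93 with shBAP1 #1, 5.98, 6.05 and 6.06 with shBAP1 #2, and 6.36, 6.14 and 6.51 in controls. All shBAP1 arrays lay below all controls, the nearest by a narrow margin. FGF21 was called lower by 0.31 log2 units with each hairpin (-0.31 ± 0.09, adjusted p = 0.0348 and 0.028). The replicate block lost the shBAP1 #1 call (adjusted p = 0.057), as did the fit of the 6 arrays compared (adjusted p = 0.0592). It was also lost without shBAP1 #1 replicate 1 or 3 or shControl replicate 1 or 3 (-0.32 to -0.22, adjusted p = 0.0771 to 0.124), and the shBAP1 #2 call without any 1 array of that hairpin or shControl replicate 1 or 3 (-0.32 to -0.22, adjusted p = 0.0571 to 0.101).

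VLDLR, a lipoprotein receptor induced by ATF4, read 6.54, 6.55 and 7.23 with shBAP1 #1, 7.63, 7.23 and 7.29 with shBAP1 #2, and 7.38, 7.11 and 7.73 in controls. Replicates 1 and 2 of shBAP1 #1 were the lowest arrays, and replicate 3 lay within the controls. The change was -0.64 ± 0.20 (adjusted p = 0.0426) with shBAP1 #1 and -0.03 (adjusted p = 0.947) with shBAP1 #2, and the hairpins differed by 0.61 ± 0.20 (adjusted p = 0.0395). The shBAP1 #1 call was lost in 6 of the 9 leave-one-array-out fits (leaving out replicates 1 or 2 of shBAP1 #1, 2 or 3 of shBAP1 #2, and 1 or 3 of shControl), at -0.65 to -0.48 and adjusted p = 0.0554 to 0.161, and in the fit of the 6 arrays compared (adjusted p = 0.0647). The difference was lost in 6 fits too (shBAP1 #1 replicate 1 or 2, any 1 array of shBAP1 #2, shControl replicate 1), at 0.49 to 0.68 and adjusted p = 0.0558 to 0.148. STC2, a secreted stanniocalcin, changed by 0.12 and 0.19 and was not called, except with shBAP1 #2 when shControl replicate 3 was left out (0.38, adjusted p = 0.0288).

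**Figure D4:**
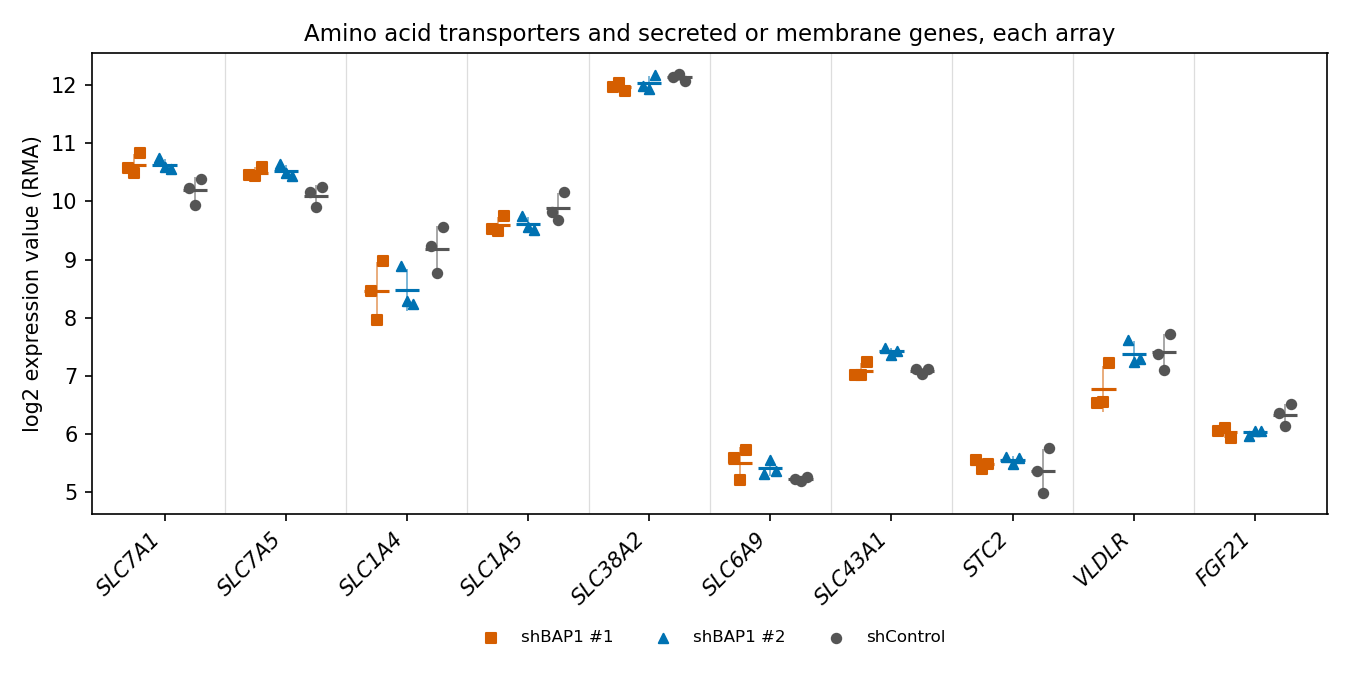
Log2 expression value (y axis) of 7 transporter genes and 3 secreted or membrane genes in each array, with the mean (line) and SD (bar) of 3 arrays for shBAP1 #1 (squares), shBAP1 #2 (triangles) and shControl (circles). For SLC7A5 all 6 shBAP1 arrays (10.43 to 10.64) lie above the controls (9.90 to 10.24), while the groups of SLC1A4 spread widely and overlap.

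The members varied together among arrays of the same group. shControl replicate 3 was the highest control for 28 of 32 members (39.6% of all genes), and shControl replicate 2 the lowest for 25 (37.4% of all genes). Among shBAP1 #1 arrays, replicate 3 was the highest for 24 members (38.7% of all genes) and replicate 2 the lowest for 21 (34.4%). With shBAP1 #2, replicate 1, the array nearest to the controls, was the highest for 22 members (36.6% of all genes). ASNS shows the size of this spread, from 11.54 to 12.39 among controls, wider than its change with either hairpin. This pattern was noticed after the values were seen and is given as a description.

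Upstream of ATF4, 18 genes of eIF2, its exchange factor, its kinases and their regulators were measured. With shBAP1 #1, 2 rose and 7 fell, and with shBAP1 #2 again 2 rose and 7 fell, at medians of -0.04 and -0.12. That is 50% of the list with each hairpin, against 25.6% and 33.4% of all genes. Calls of these genes and of the lists below were not followed through the other settings or other probe sets. EIF2S1, the eIF2 subunit that the kinases phosphorylate, read 12.17, 12.24 and 12.44 with shBAP1 #1, 12.80, 12.67 and 12.75 with shBAP1 #2, and 12.99, 12.94 and 13.09 in controls. All shBAP1 arrays lay below the controls (-0.72 ± 0.08, adjusted p = 0.000123, and -0.27 ± 0.08, adjusted p = 0.0305). EIF2AK3 encodes PERK, the kinase that senses stress in the endoplasmic reticulum. It read 8.35, 8.45 and 8.31 with shBAP1 #1, 7.63, 7.40 and 7.65 with shBAP1 #2, and 8.77, 8.91 and 8.49 in controls. The groups did not overlap, and EIF2AK3 fell with shBAP1 #2 (-1.16 ± 0.11, adjusted p = 3.01e-05) and with shBAP1 #1 (-0.35 ± 0.11, adjusted p = 0.036). EIF2A, an alternative initiation factor, fell with shBAP1 #1 (-0.64 ± 0.08, adjusted p = 0.000137), and OMA1, the mitochondrial protease that relays stress to this pathway, with shBAP1 #2 (-0.49 ± 0.10, adjusted p = 0.00405) and with shBAP1 #1 (-0.39 ± 0.10, adjusted p = 0.019).

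Of 15 other genes linked to ATF4 signalling, 3 rose and 2 fell with shBAP1 #1, and 2 rose and 5 fell with shBAP1 #2. These are 33.3% and 46.7% of the list, against 25.6% and 33.4% of all genes. SESN2, a sestrin that signals leucine shortage to mTORC1, read 9.83, 9.58 and 9.75 with shBAP1 #1, 9.45, 9.48 and 9.43 with shBAP1 #2, and 8.85, 8.74 and 9.02 in controls. All shBAP1 arrays lay above the controls (0.85 ± 0.09, adjusted p = 6.75e-05, and 0.58 ± 0.09, adjusted p = 0.000491). SESN2 is also a p53 target. INHBE, an inhibin chain induced by stress, read 5.19, 5.20 and 5.91 with shBAP1 #1, 4.54, 3.89 and 3.72 with shBAP1 #2, and 6.20, 5.76 and 7.20 in controls. It fell with shBAP1 #2 (-2.34 ± 0.35, adjusted p = 0.000433), to values below the median of all probe sets. TXNIP, a thioredoxin-binding protein that limits glucose uptake, was called in opposite directions, 0.88 ± 0.20 with shBAP1 #1 (adjusted p = 0.00846) and -1.23 ± 0.20 with shBAP1 #2 (adjusted p = 0.000808).

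Of 13 other genes of folate and glycine metabolism, 1 rose and 3 fell with shBAP1 #1, and 0 rose and 5 fell with shBAP1 #2. The called shares, 30.8% and 38.5%, lie near those over all genes, 25.6% and 33.4%. MTHFD1, the cytosolic counterpart of the mitochondrial folate enzymes, read 12.27, 12.12 and 12.47 with shBAP1 #1, 11.74, 11.13 and 11.15 with shBAP1 #2, and 12.31, 12.23 and 12.44 in controls. The shBAP1 #2 arrays lay below all others (-0.99 ± 0.15, adjusted p = 0.000631), as they did for MTHFD2. MTHFD2L, the relative of MTHFD2, changed by 0.91 ± 0.095 with shBAP1 #1 (adjusted p = 7.29e-05) and -0.37 ± 0.095 with shBAP1 #2 (adjusted p = 0.0116). MTR, the methionine synthase gene, fell by 1.01 on the log2 scale with shBAP1 #1 (SE 0.09, adjusted p = 2.83e-05) and by 0.36 with shBAP1 #2 (adjusted p = 0.00835).

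Of 17 other amino acid enzymes, 2 rose and 3 fell with shBAP1 #1, and 3 rose and 6 fell with shBAP1 #2. The called shares were 29.4% and 52.9%, against 25.6% and 33.4% of all genes. BCAT2, the mitochondrial aminotransferase of branched-chain amino acids, read 9.41, 9.30 and 9.49 with shBAP1 #1, 8.99, 9.12 and 9.14 with shBAP1 #2, and 8.06, 7.73 and 8.15 in controls. ARG2, the mitochondrial arginase, read 9.41, 9.08 and 9.05 with shBAP1 #1, 8.83, 8.73 and 8.66 with shBAP1 #2, and 10.30, 10.22 and 10.22 in controls. Neither gene's shBAP1 arrays overlapped its controls. BCAT2 rose by 1.42 ± 0.11 and 1.10 ± 0.11 (adjusted p = 1.34e-05 and 3.67e-05), and ARG2 changed by -1.07 ± 0.10 and -1.50 ± 0.10 (adjusted p = 3.34e-05 and 5.09e-06).

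Of 21 other amino acid transporters, 3 rose and 6 fell with shBAP1 #1, while 10 rose and 2 fell with shBAP1 #2. Over all genes, 13% were called higher and 12.6% lower with shBAP1 #1, and 16.9% higher and 16.5% lower with shBAP1 #2. Set directly against shBAP1 #1, 10 were higher with shBAP1 #2 and 0 lower (17.1% and 17.6% of all genes). SLC7A11, the cystine importer, read 9.37, 8.87 and 9.02 with shBAP1 #2, 7.63, 7.64 and 8.10 with shBAP1 #1, and 8.58, 8.22 and 8.85 in controls. It was higher with shBAP1 #2 (0.54 ± 0.18, adjusted p = 0.0459) and lower with shBAP1 #1 (-0.76 ± 0.18, adjusted p = 0.0107), and the hairpins differed by 1.30 ± 0.18 (adjusted p = 0.000283). SLC6A15, a carrier of neutral amino acids, rose with shBAP1 #2 (0.77 ± 0.08, adjusted p = 4.14e-05), as did SLC38A7, a lysosomal glutamine carrier (0.72 ± 0.12, adjusted p = 0.000801). SLC6A6, the taurine transporter gene, fell with shBAP1 #1 (-0.87 ± 0.11, adjusted p = 0.000235).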

How the data were processed

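RNA of U2OS cells was hybridised to 9 arrays of 54675 probe sets. The values are log2 expression values deposited by the authors, made with RMA per the submitters' processing notes; software versions and background settings are not given in the sources used here, and array medians lay between 5.40 and 5.45. Groups and replicate numbers came from the sample titles.

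Of the probe sets, 41097 carried 1 gene symbol in the platform annotation, 1801 several and 11777 none there; 41043 matched RefSeq names. Each of 19775 genes was read by its probe set of highest mean, with no filter on dim genes. One linear model over all 9 arrays was fitted in limma 3.58.1 (R 4.3.3) with empirical Bayes moderation, and Benjamini-Hochberg adjusted p-values over all genes were called below 0.05. On simulated data of 19775 genes, 65.7% of changes of 0.5 log2 units and 94% of changes of 1 were recovered for shBAP1 #1 against shControl. Of the simulated calls, 6.49% were false in that comparison, 4.4% for shBAP1 #2 against shControl and 7.03% between the hairpins. Each simulation changed 67 genes by 0.5, 67 by 1 and 66 by 2 log2 units, with independent noise for each gene. In the real data far more genes were called and members varied together, so these rates need not hold there.

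The members and gene lists were chosen with earlier results of these data known. All members are described. From each of the 5 other lists the 2 called genes with the largest change per hairpin were named. Deviations from group means correlated between same-numbered arrays of shBAP1 #1 and shControl at 0.113, 0.203 and 0.216, so the numbers may pair those groups. For shBAP1 #2 and shControl they correlated at 0.0675, 0.181 and -0.105. The reported calls come from the model without the replicate block, which was run as an alternative. The 16 alternatives covered leaving out each array, the mean of all probe sets, dim genes, cyclic loess, centring on array medians, a prior trend, only the groups compared and the replicate block. Promoter windows came from RefSeq (GRCh38.p14); NUPR1, PYCR1, PSPH, SHMT2, ALDH1L2, GPT2 and EIF4EBP1 had none in the table used. Figures were drawn with matplotlib 3.10.9.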

Additional observations from a re-analysis of the deposited data

How the results depend on the processing

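Of 37 called changes of members, 20 held in all 16 alternative settings and 17 were lost in at least 1: with shBAP1 #1 4 of 11 held, with shBAP1 #2 8 of 14, and between the hairpins 8 of 12. No called change turned its sign, while 55 changes called under neither setting had the other sign. The count of members lowered by shBAP1 #1, 8 over all arrays, was 5 when only the 2 groups compared were fitted and ranged from 2 to 10 when 1 array was left out. The count lowered by shBAP1 #2, 9 over all arrays, ranged from 5 to 13 when 1 array was left out. Calls over all genes then ranged from 3912 to 5571 for shBAP1 #1 and from 5456 to 6885 for shBAP1 #2. With the replicate number as a block, 3 members were higher and 9 lower with shBAP1 #1. With shBAP1 #2, 5 were higher and 12 lower, and for shBAP1 #2 against shBAP1 #1, 6 were higher and 6 lower. Calls over all genes are not given here for the replicate block or for the fit of only the groups compared. The member counts of those fits therefore cannot be set against them. The replicate block also gave calls with shBAP1 #2 for NUPR1 (adjusted p = 0.0374), CTH (adjusted p = 0.0127) and SLC1A4 (adjusted p = 0.0238), and changed no other call than these and those given for FGF21, CTH and SLC1A4 with shBAP1 #1. The cause of these moves was not tested. Background correction from scanner values and the slide or scan as a block were not run, since scanner files were not used here. The number of arrays and, for ALDH1L2 and SLC6A9, a signal below the median of all probe sets limit the precision.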
